A study of Mus musculus with 4 samples.

Results

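The regions described here are the H3K27ac sites listed by the authors around Esrrb, Tfcp2l1, Tbx3 and Prdm14, 4 transcription regulators of naive pluripotency. They were selected by position: a region is a member if it overlaps an mm9 window on chromosome 12 from 87680000 to 87890000 (Esrrb), on chromosome 1 from 120490000 to 120610000 (Tfcp2l1), on chromosome 5 from 120090000 to 120160000 (Tbx3) or on chromosome 1 from 13020000 to 13140000 (Prdm14). Of the 23946 listed regions, 11 met this rule. Prdm14 had 5, Tbx3 had 3, Tfcp2l1 had 2 and Esrrb had 1. The rule uses no measured value, but the 4 genes and their windows were proposed with earlier results of these data known. ChIP-seq, the sequencing of immunoprecipitated chromatin, measured H3K27ac, an acetylated form of histone H3 found at active promoters and enhancers. The cells were the mouse embryonic stem (ES) line MC1-ZE7, of the strain MC1 (129S6/SvEvTac). These carry a reporter, Emerald, a green fluorescent protein that follows expression of Zscan4, a zinc-finger gene family that few ES cells express at any one time. All cells were grown without feeders in serum with LIF (leukemia inhibitory factor) and sorted by flow cytometry. There were 2 libraries of Emerald-negative cells (Zscan4-) and 2 of the bright Emerald-positive fraction (Zscan4+). All libraries come from 1 reporter line. The labels do not say whether replicates were separate cultures, so p-values rest on a spread between these libraries that may be technical. In the fit used for the calls, that spread was taken from all regions of similar level, not from each region alone.

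Naive pluripotency is held by a network of transcription factors that support each other's expression, and ES cells in serum and LIF express it unevenly from cell to cell. Esrrb is an orphan nuclear receptor in that network and is repressed by Tcf7l1 when Wnt signalling is low. Tfcp2l1 is a grainyhead-related factor and a direct target of LIF and Stat3. Tbx3 is a T-box factor that can maintain self-renewal when LIF is absent and also acts in endoderm. Prdm14 is a PR-domain protein that represses FGF receptor signalling and DNA methyltransferase genes and is needed for germ cell specification.

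The files name regions by number and pair none with a gene, so no region is called a promoter, an enhancer or an exon here, and the gene labels of the windows could not be checked against the data. In the RefSeq gene table of GRCm38.p6, used for gene order only, the nearest protein-coding genes are Gpatch2l and Vash1 for Esrrb, Clasp1 and Gli2 for Tfcp2l1, Med13l and Tbx5 for Tbx3, and Slco5a1 and Ncoa2 for Prdm14. Position alone does not assign a region to one of these genes. Values are RPKM, reads per kilobase of region and per 1000000 reads of the library. The recovered totals ran from 9939218 to 18284516 reads per library. The share of reads inside listed regions was 16.74% and 17.88% in Zscan4- replicates 1 and 2, against 12.97% and 19.14% in Zscan4+ replicates 1 and 2. Zscan4+ replicate 1 was thus lower than the other 3 libraries over the whole list. Without it, both regions called below were still called, R00105 at a log2 difference of -1.43 (limma adjusted p = 0.000953) and R17242 at 1.37 (adjusted p = 0.0291). A difference in a sorted pool cannot tell apart fewer acetylated cells and less acetylation per cell.

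In Zscan4+ cells H3K27ac fell at 1 of the 5 Prdm14 regions, rose at 1 of the 3 Tbx3 regions, and passed the test at none of the Tfcp2l1 and Esrrb regions, in limma with p-values adjusted over all regions and a threshold of 0.05. Over the whole list, 6.82% of regions were called lower and 8.01% higher, so 1 of 11 members in each direction is near the background of this fit. The number of members called depends on the fit. This one had no replicate block, although replicates 1 and 2 differed in the fragment size taken in both groups. With the replicate number as a block and each library centred on its median over the list, 7 of the 11 were called lower, all 5 of Prdm14 and both of Tfcp2l1, against 24.5% of all regions. In that fit 2 of the 11, R17242 and R17243, were called higher, against 20.7% of all regions. All 11 passed the minimum of 0.5 RPKM. In 8 of the 11 both Zscan4+ libraries were below both Zscan4- libraries, which was so for 35.1% of all regions. In 2 of the 11 both were above, which was so for 18.6% of all regions. The median log2 difference (Zscan4+ minus Zscan4-, on log2(RPKM + 0.5)) was -0.52 over the members and -0.17 over all regions. It was -0.61 in replicate 1 and -0.45 in replicate 2 for the members, against -0.37 and 0.05 for all regions. The 8 members that were lower were all of Prdm14, both of Tfcp2l1 and 1 of Tbx3, and the 2 that were higher were both of Tbx3.

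**Figure D1:**
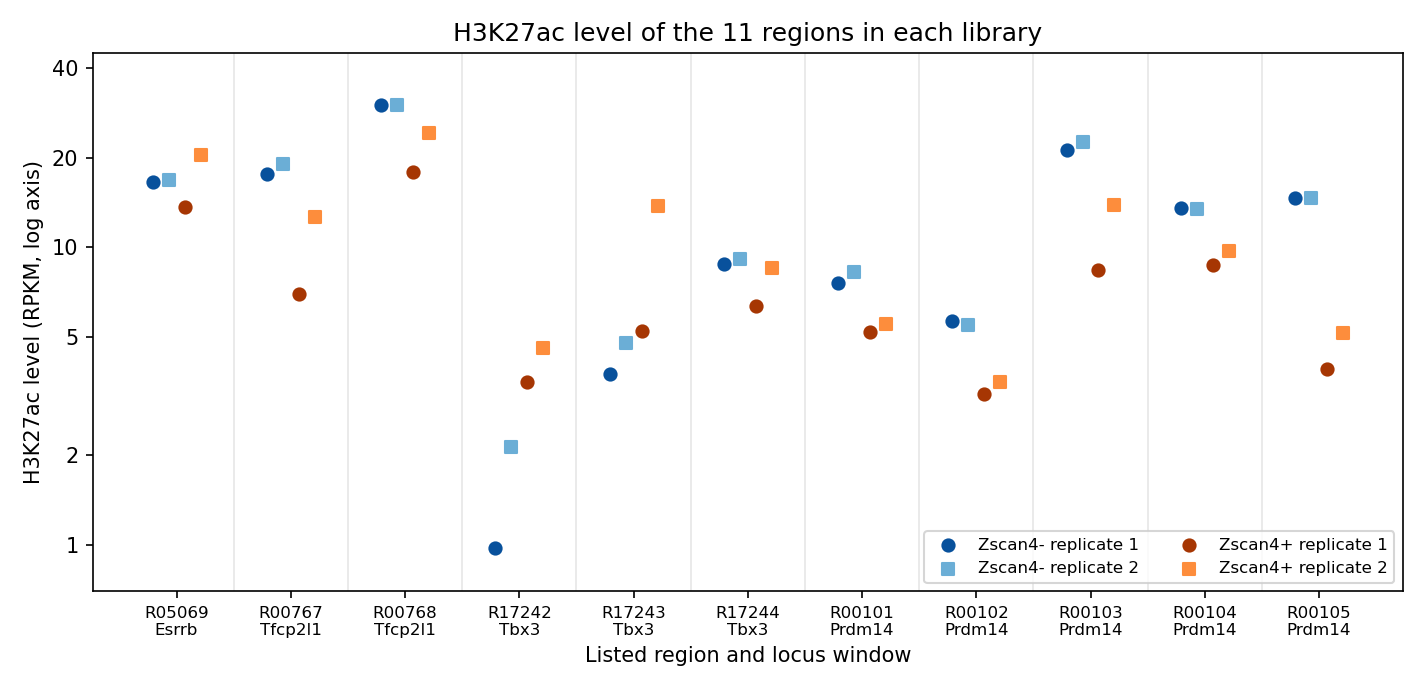
H3K27ac level in RPKM on a log axis (vertical) of the 11 regions (horizontal), with 1 point per library: circles for replicate 1, squares for replicate 2, blue for Zscan4- and orange for Zscan4+. The 5 Prdm14 and 2 Tfcp2l1 regions have both orange points below both blue points, R17242 and R17243 of Tbx3 have them above, and the Esrrb region has 1 on each side.

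The largest fall was in the Prdm14 window. Its 5 regions, R00101 to R00105, lay within 30.8 kb, with gaps of 3.3 to 8.6 kb, and covered 6173 bp. R00105, on chromosome 1 from 13093348 to 13094460, had 14.66 and 14.68 RPKM in Zscan4- replicates 1 and 2, and 3.89 and 5.14 RPKM in Zscan4+ replicates 1 and 2. Both Zscan4+ values were far below both Zscan4- values, and the Zscan4- values were nearly equal. The mean went from 14.67 ± 0.01 to 4.51 ± 0.88 RPKM (SD, n = 2), which leaves 30.8% of the Zscan4- level. The log2 difference was -1.61 (SE 0.37, limma adjusted p = 0.000259). Of the 23946 regions, 90 had a lower difference. Pooled over replicates it held 452 reads in Zscan4- and 170 in Zscan4+ cells. Per library read this is a ratio of 0.305 (exact 95% counting interval 0.254 to 0.364). The log2 difference was -1.79 in replicate 1 and -1.43 in replicate 2. Leaving out Zscan4- replicate 1 or replicate 2 kept the limma log2 difference at -1.61, and the standard error rose to 0.73 and 0.72. R00105 was then called in neither fit, but the median standard error of all regions also rose, from 0.36 to 0.65 and 0.64.

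R00103, the narrowest Prdm14 region at 331 bp and the one with the highest level, lies on chromosome 1 from 13075231 to 13075562. In replicate order its levels were 21.28 and 22.62 RPKM in Zscan4- cells, against 8.43 and 13.85 RPKM in Zscan4+ cells. The groups did not overlap, and the Zscan4+ replicates were further apart than the Zscan4- replicates. The log2 difference was -0.99 (SE 0.39, limma adjusted p = 0.0706), which did not pass. With the replicate number as a block it passed, at an adjusted p of 0.0425, and with each library centred on its median over the list it passed at 0.0035, with a log2 difference of -0.89.

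The other 3 Prdm14 regions had smaller differences that did not pass the test in the uncentred fit with no block. With the replicate block and median centring together they passed, at limma adjusted p of 0.0146 for R00104, 0.0344 for R00101 and 0.0181 for R00102. R00104, from 13084201 to 13085273, had 13.61 and 13.5 RPKM in Zscan4- and 8.72 and 9.73 RPKM in Zscan4+ libraries, a log2 difference of -0.53 (limma adjusted p = 0.398). At R00101, from 13063662 to 13065687, the values were 7.6 and 8.26 RPKM against 5.19 and 5.55 RPKM, with a log2 difference of -0.52. At R00102, from 13068965 to 13070598, they were 5.67 and 5.48 RPKM against 3.22 and 3.54 RPKM, with a log2 difference of -0.65. In each of the 3, both Zscan4+ libraries were below both Zscan4- libraries, and 60.6% to 68.1% of the Zscan4- mean was left. Their counting intervals for the ratio of pooled reads all lay below 1, the closest being 0.586 to 0.787 at R00104. All ratios of pooled reads here are per library read and are not scaled to the reads inside listed regions. The share of reads inside listed regions was lowest in Zscan4+ replicate 1, at 12.97%, so 1 need not be the ratio of a typical listed region.

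Summed over the listed regions of the window, Prdm14 H3K27ac was 62.6 and 64.0 RPM (reads per 1000000 library reads) in the Zscan4- libraries. In the Zscan4+ libraries it was 32.2 and 37.8. The Zscan4+ mean of 35.0 ± 3.9 was 55.3% of the Zscan4- mean of 63.3 ± 0.97 (SD, n = 2). The gap is larger than the spread within either group, though 2 libraries against 2 cannot go below p = 0.33 in an exact two-sided permutation test. Scaled to the reads inside listed regions, the log2 ratio of the sums was -0.71 in place of -0.85.

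The differences were uneven along the Prdm14 window. R00105 and R00104, neighbours 8.1 kb apart, had nearly equal levels in Zscan4- cells, with an R00105 to R00104 ratio of 1.08 and 1.09. In Zscan4+ cells the ratio was 0.45 and 0.53. A ratio within 1 library does not depend on how the libraries are scaled, so this difference is the same whatever the scaling of Zscan4+ replicate 1. The exact two-sided permutation p was 0.33, the smallest this design allows. Of the reads in the window's listed regions, R00105 held 26.0% (exact Clopper-Pearson 95% interval 22.6 to 29.7) and 25.5% (23.0 to 28.2) in the Zscan4- libraries. These were the largest and the second largest of the 5 shares. In the Zscan4+ libraries R00105 held 13.4% (10.8 to 16.4) and 15.1% (12.4 to 18.3). The shares of R00101, R00102 and R00104 were higher in both Zscan4+ libraries, and that of R00103, with 11.3% and 11.7% against 8.66% and 12.1%, overlapped between the groups. All counting and binomial intervals here leave out PCR copies and replicate spread.

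**Figure D2:**
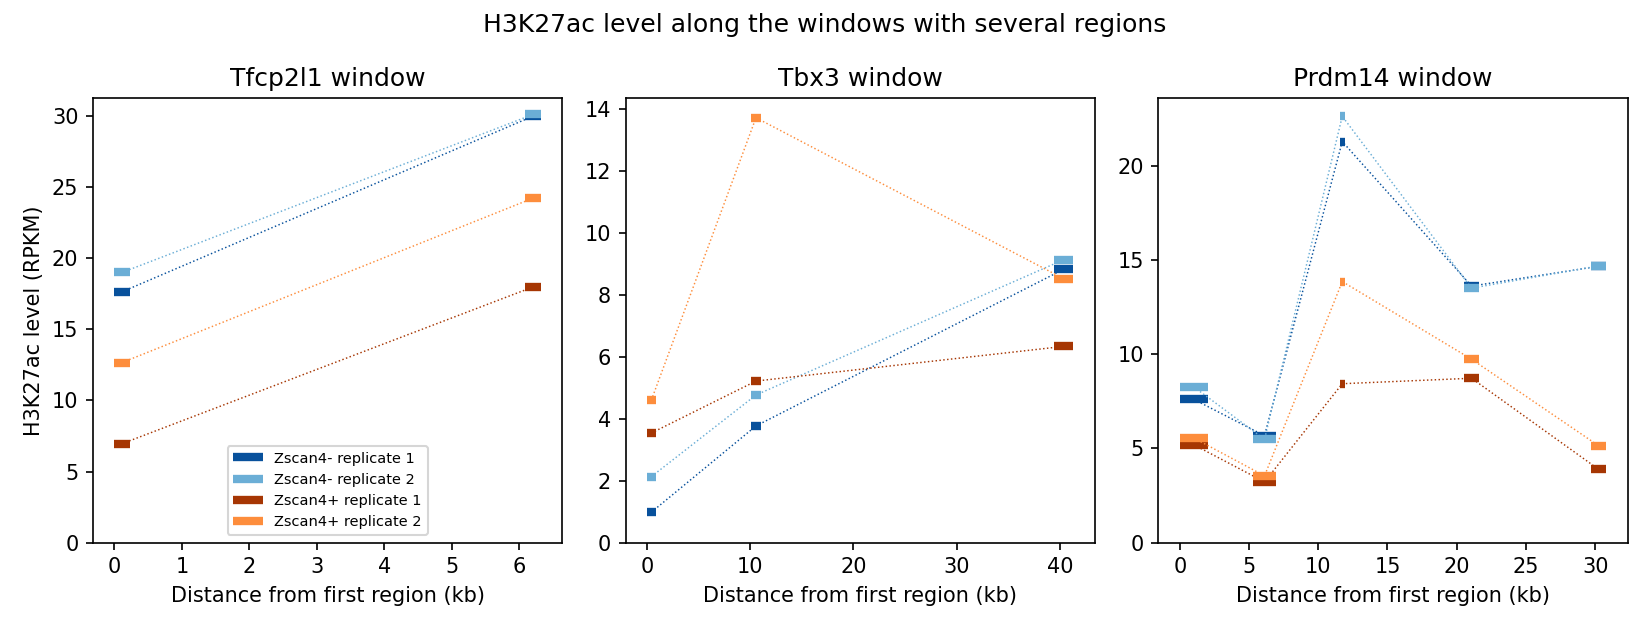
H3K27ac level in RPKM (vertical) against the distance from the first region of the window in kb (horizontal) for Tfcp2l1, Tbx3 and Prdm14; each bar is 1 region at its true width in 1 library, and dotted lines join the regions of a library. In the Prdm14 panel the 2 blue lines stay near 14.7 RPKM at the last region while the orange lines drop to 3.89 and 5.14 RPKM.

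The nearest listed regions outside the Prdm14 window differed less between the groups, a contrast that was not itself tested. R00100, 57.4 kb before R00101, had 3.59 and 4.28 RPKM in Zscan4- and 2.5 and 4.24 RPKM in Zscan4+ libraries, and R00106, 111.6 kb after R00105, had 3.84 and 4.03 RPKM against 2.46 and 5.34 RPKM. Both overlapped between groups, with log2 differences of -0.23 and -0.09 (limma adjusted p = 0.748 and 0.911). These flanking regions, within 100 kb of a window, were looked at after the data had been seen.

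Tbx3 was the one window with a region that rose. R17242, on chromosome 5 from 120119975 to 120120794, had 0.98 and 2.13 RPKM in Zscan4- replicates 1 and 2, and 3.54 and 4.6 RPKM in Zscan4+ replicates 1 and 2. It was the weakest member in Zscan4- cells, where it held 8 and 31 reads, and both Zscan4+ libraries were above it, at 53 and 60 reads. A count of 0 would allow up to 0.37 RPKM at this width in the shallowest library. The mean rose from 1.56 ± 0.81 to 4.07 ± 0.75 RPKM (SD, n = 2), 2.62-fold. The log2 difference was 1.2 (SE 0.36, limma adjusted p = 0.0084), 1.45 in replicate 1 and 0.96 in replicate 2. Of the 23946 regions, 1560 had a higher difference. The ratio of pooled reads was 2.35, with an exact 95% counting interval of 1.62 to 3.47. Without Zscan4- replicate 1 the log2 difference was 0.79 (SE 0.59), and without Zscan4- replicate 2 it was 1.62 (SE 0.58). R17242 was called in neither fit, but the median standard error of all regions also rose, from 0.36 to 0.65 and 0.64.

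R17243, 9.3 kb further on from 120130062 to 120130995, had 3.77 and 4.77 RPKM in Zscan4- and 5.22 and 13.73 RPKM in Zscan4+ libraries. The groups did not overlap, but Zscan4+ replicate 2 stood well above the other 3 libraries. Its log2 difference was 0.93 (SE 0.36, limma adjusted p = 0.064), and 0.42 and 1.43 in replicates 1 and 2. With the replicate block the adjusted p was 0.0225. Without Zscan4+ replicate 1 it was 0.00115, at a log2 difference of 1.58, and without Zscan4+ replicate 2 it was 0.423, at 0.27.

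R17244, from 120159381 to 120161296, crosses the end of the window. It had 8.83 and 9.14 RPKM in Zscan4- and 6.34 and 8.53 RPKM in Zscan4+ libraries, slightly lower in both. Its log2 difference of -0.27, with a 95% interval of -1.0 to 0.46, did not pass (limma adjusted p = 0.71). R17244 held 479 and 482 pooled reads in the 2 groups, more than R17242 and R17243 together. The Tbx3 sum over the 3 regions showed little of the rise at R17242: 21.2 and 23.7 RPM in Zscan4- and 19.9 and 32.9 in Zscan4+ libraries. Those groups overlapped, and the log2 ratio of the sums, 0.23, was -0.17 without Zscan4+ replicate 2.

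Of the reads in the listed regions of the Tbx3 window, R17244 held a smaller share in Zscan4+ cells. R17244 held 79.6% (exact 95% interval 73.5 to 84.8) and 73.9% (69.4 to 78.0) of these reads in the Zscan4- libraries. In the Zscan4+ libraries it held 61.0% (55.8 to 66.0) and 49.6% (45.3 to 54.0). The R17242 to R17244 ratio of RPKM was 0.11 and 0.23 in Zscan4- cells and 0.56 and 0.54 in Zscan4+ cells. The R17243 to R17244 ratio was 0.43 and 0.52, against 0.82 and 1.61. Neither ratio overlapped between groups (exact two-sided permutation p = 0.33 for each, the smallest possible).

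**Figure D3:**
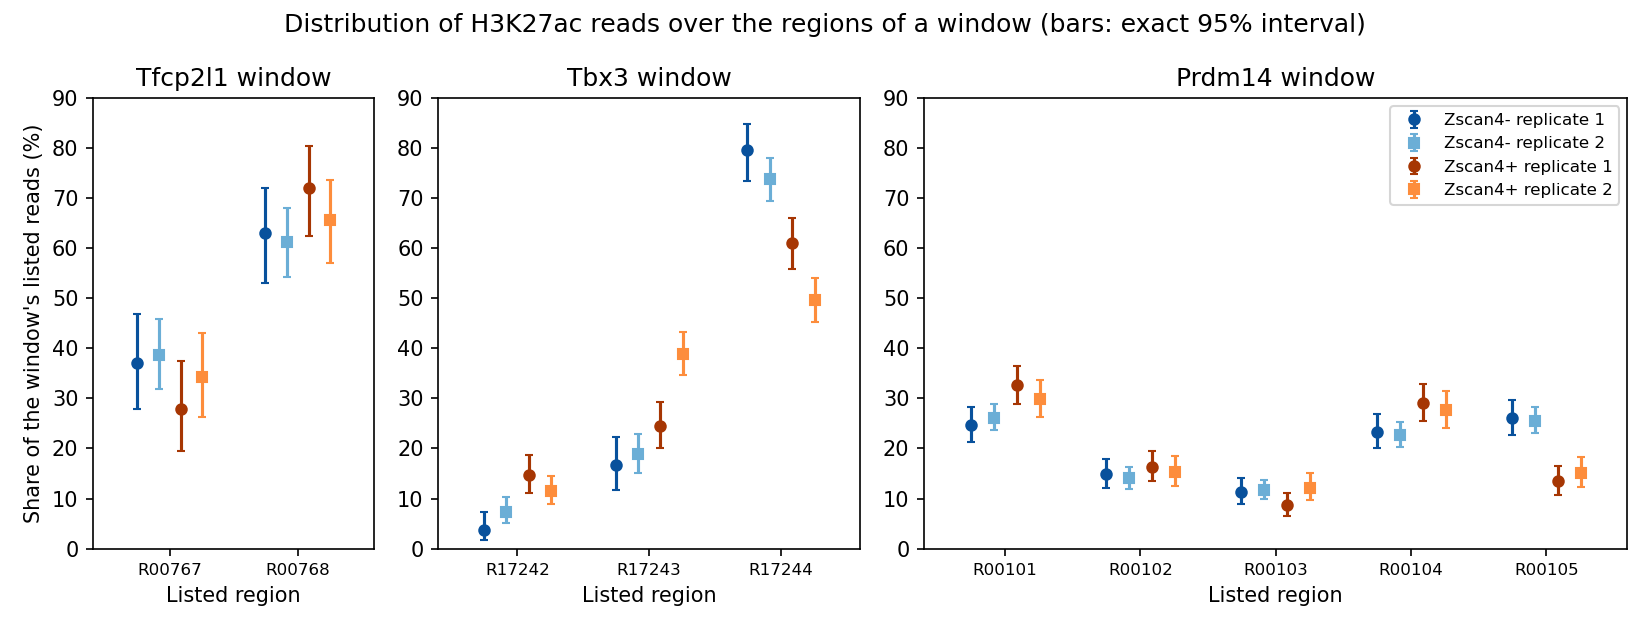
Share of the reads in a window's listed regions that fell in each region, in percent (vertical), for the regions of Tfcp2l1, Tbx3 and Prdm14 (horizontal) in the 4 libraries; error bars are exact 95% binomial intervals for counting error. R17244 goes from 79.6% and 73.9% to 61.0% and 49.6%, and R00105 from 26.0% and 25.5% to 13.4% and 15.1%.

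Farther from Tbx3, 2 more listed regions had higher H3K27ac in Zscan4+ cells. R17240, on chromosome 5 from 120029271 to 120030745, had 1.3 and 1.91 RPKM in Zscan4- and 3.97 and 4.94 RPKM in Zscan4+ libraries. It rose by a log2 difference of 1.24 (limma adjusted p = 0.00554), and 1508 listed regions had a higher difference. R17241, 5.2 kb on, had 2.72 and 2.25 RPKM against 4.37 and 6.2 RPKM, a log2 difference of 0.94 that missed the threshold (limma adjusted p = 0.0503). Between them and R17242 lay 82.3 kb with no listed region, so which gene they belong to is not given by position.

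Both Tfcp2l1 regions were lower in Zscan4+ cells without passing the test in the uncentred fit with no block. R00767, on chromosome 1 from 120538914 to 120539142, had 17.65 and 19.01 RPKM in Zscan4- and 6.96 and 12.67 RPKM in Zscan4+ replicates 1 and 2. The groups did not overlap, and the lowest value was that of Zscan4+ replicate 1. The log2 difference was -0.92 (SE 0.39, limma adjusted p = 0.09), and -1.28 and -0.57 in the 2 replicates. With each library centred on its median over the list, the adjusted p was 0.00656 at a log2 difference of -0.83, and with the replicate block added it was 0.000748.

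R00768, 5.9 kb on from 120545002 to 120545230, was the strongest of the 11 members in both groups. It had 30.01 and 30.13 RPKM in Zscan4- and 17.99 and 24.24 RPKM in Zscan4+ libraries, a log2 difference of -0.52 (SE 0.41, limma adjusted p = 0.461). With the replicate block and median centring together it passed, at a log2 difference of -0.42 and an adjusted p of 0.0264. Its level was above that of 94.8% of all listed regions. The sum over both was 10.9 and 11.2 RPM in Zscan4- and 5.69 and 8.42 in Zscan4+ libraries, 63.9% of the Zscan4- mean. The ratio of R00767 to R00768 was 0.59 and 0.63 in Zscan4- and 0.39 and 0.52 in Zscan4+ cells, which did not overlap (exact permutation p = 0.33). The binomial intervals of the R00767 share overlapped between the groups, at 31.9 to 45.8 in Zscan4- replicate 2 and 26.3 to 43.0 in Zscan4+ replicate 2, in percent.

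Esrrb had a single listed region in its window of 210 kb, and its difference did not pass the test. R05069, on chromosome 12 from 87811551 to 87811788, had 16.56 and 16.87 RPKM in Zscan4- and 13.62 and 20.41 RPKM in Zscan4+ libraries. One Zscan4+ library was below both Zscan4- libraries and the other was above them. The log2 difference was -0.003 (SE 0.4, limma adjusted p = 0.998), and its 95% interval of -0.78 to 0.77 holds the difference found at R00768. The pooled reads were 110 and 136, a ratio of 1.0 with a counting interval of 0.773 to 1.3. The sign of the log2 difference turned with the scaling, to 0.09 after median centring. Its nearest listed region within 100 kb of the window, R05068, lay 228.9 kb away and had 3.27 and 1.67 RPKM against 3.88 and 4.65 RPKM, from 10 to 25 reads per library (limma adjusted p = 0.158).

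**Figure D4:**
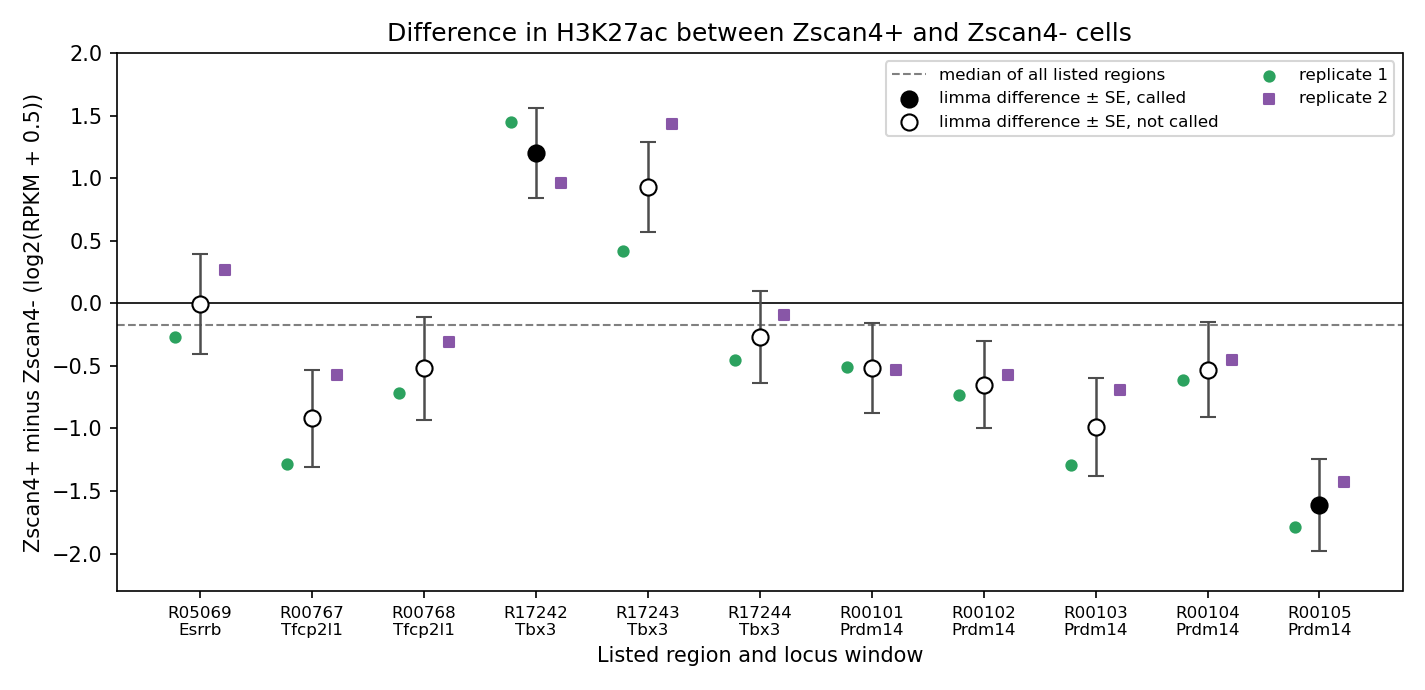
Log2 difference between Zscan4+ and Zscan4- cells on log2(RPKM + 0.5) (vertical) for the 11 regions (horizontal): large points with bars are the limma estimate ± SE, filled where the adjusted p was at most 0.05; small points are replicates 1 and 2 alone, and the dashed line is the median of all listed regions, -0.17. R17242 at 1.2 and R00105 at -1.61 are the filled points, and the 2 replicates of R05069 lie at -0.27 and 0.27.

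The sums over the listed regions of each window were also set against each other within each library, which again does not depend on scaling. Those regions covered 237 bp for Esrrb, 456 bp for Tfcp2l1, 3667 bp for Tbx3 and 6173 bp for Prdm14. The size of a ratio thus also depends on the widths listed. The ratio of the Prdm14 to the Esrrb sum was 15.95 and 16.0 in Zscan4- libraries and 9.99 and 7.8 in Zscan4+ libraries. The ratio of the Tfcp2l1 to the Esrrb sum was 2.77 and 2.8, against 1.76 and 1.74. The Esrrb sum rested on 39 to 77 reads per library, and counting error was not computed for any ratio of sums given here. Prdm14 to Tbx3 went from 2.95 and 2.7 to 1.62 and 1.15, and Tbx3 to Tfcp2l1 from 1.95 and 2.12 to 3.5 and 3.91. None of these 4 ratios overlapped between the groups. The values of the remaining pairs did not overlap either but differed less. Tbx3 to Esrrb was 5.41 and 5.93 against 6.17 and 6.8, and Prdm14 to Tfcp2l1 was 5.76 and 5.71 against 5.67 and 4.49. The gap between 5.71 in Zscan4- replicate 2 and 5.67 in Zscan4+ replicate 1 may rest on counting error. All 6 ratios were formed from the same window sums, so they are not 6 separate observations. For each of the 6 ratios the exact two-sided permutation p was 0.33, the smallest possible, and adjusting over the 6 leaves it there.

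The order of the members by RPKM, a level per length, was not the same in the groups. In Zscan4- cells it ran R00768, R00103, R00767, R05069, R00105, R00104, R17244, R00101, R00102, R17243 and R17242, and the replicates of neighbours in that order did not overlap. Counting error was not taken into account in either order, and close places may rest on it. In Zscan4- replicate 1, for example, R00767 and R05069 held 40 and 39 reads. In Zscan4+ cells R00768 was again first, R05069 moved from place 4 to 2, R17243 from 10 to 5, and R00105 from 5 to 9. There 7 of the 10 neighbouring pairs overlapped, so most of that order is within the replicate spread. The Esrrb and Tfcp2l1 regions were narrow, at 237, 228 and 228 bp, and the Tbx3 and Prdm14 regions, other than R00103, were 819 to 2025 bp wide. Of all listed regions, 1631 (6.8%) were at most 237 bp wide. Their median level was 14.1 RPKM, against 4.51 RPKM for wider ones, and the part of width in the high rank of these 3 was not tested. Among narrow regions 9.87% were called lower and 10.4% higher, against 6.59% and 7.83% of wider ones.

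For the strongest region of each window, the listed region elsewhere with the most similar level in all 4 libraries was taken by the root mean square difference in log2(RPKM + 0.5). For R05069 it was R14067 on chromosome 3 from 88968218 to 88969321 (0.029), and for R00768 it was R08867 on chromosome 16 from 48303355 to 48304177 (0.038). For R17244 it was R06389 on chromosome 13 from 112599246 to 112600879 (0.038), and for R00103 it was R08216 on chromosome 15 from 99045599 to 99046474 (0.054). With 4 libraries such likeness is easily met: between 7 and 50 regions lay within 0.1 of each of the 4.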

How the data were processed

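H3K27ac ChIP-seq of 2 Zscan4- and 2 Zscan4+ libraries was used, with groups taken from the labels' descriptions. The deposited values are RPKM per listed region, per the file headers, made by the authors with Bowtie and HOMER on mm9, per the submitters' processing notes. Tool versions and the method of region calling: not given in the sources used here. Per the labels' protocols, fragments of 200 to 500 bp were taken after amplification for replicate 2, and of 200 to 300 bp for replicate 1, so the numbers pair libraries by preparation. Replicate deviations correlated at 0.35 between groups across regions. No input library was used here.

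All 23946 regions were fitted with limma 3.58.1 in R 4.3.3 on log2(RPKM + 0.5), with a variance trend and a minimum mean of 0.5 RPKM, which removed none. Log2 differences are on that scale, which understates low regions, whereas folds and percentages of the Zscan4- level are ratios of mean RPKM or RPM with nothing added. P-values are two-sided, adjusted by Benjamini-Hochberg over all regions and called at 0.05. limma gave all regions of a level 1 shared variance, so standard errors hardly differ, and 95% intervals use the normal quantile. A test of the fit on simulated data was run first, and its outcome is not given here. Its draws had the same dispersion for every region and no replicate effect by region. It therefore cannot show how the calls hold under the replicate differences of these data. Reads were recovered from RPKM times width: 97.11% to 99.97% of values below 50 reads lay within 0.1 of a whole number. Replicates differed by more than sampling noise (chi-square of 1.91 and 2.93 per degree of freedom). Sums, ratios and intervals used Python 3.11.15 and scipy 1.17.1. The members, windows and tests were chosen with earlier results of these data known. By the naming rule every member is named, with all values for those of highest level, called, or of largest or smallest difference per window; the values of the others were added. The fixed list of other naive genes was not used, since no mm9 annotation was used here. Alternatives were a replicate block, other pseudocounts, minimums, scalings and thresholds, voom on recovered reads, other window edges and each library left out.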

Additional observations from a re-analysis of the deposited data

How the results depend on the processing

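Of 165 values of the 11 regions under 15 other settings of the fit, 128 kept their direction and side of the threshold, 27 newly passed it, 4 no longer did and 6 changed sign. The 4 were R17242 and R00105 without either Zscan4- library. All 6 were R05069, near 0: 0.09 with median centring, with or without the replicate block, 0.16 with quantile normalization, 0.14 with voom scaled to the listed regions' reads, 0.01 without Zscan4- replicate 2 and 0.28 without Zscan4+ replicate 1 (-0.29 to 0.28 over all libraries left out). Each count of member regions is given with the share of all regions called in the same fit. Those called higher (1, 8.01%) numbered 2 with the replicate block (9.35%), median centring (14.1%), both (20.7%), quantile normalization (13.8%), voom scaled to the listed regions' reads (15.8%), a threshold of 0.10 (9.1%) and windows widened by 100 kb, chosen after seeing the data, and 0 to 2 with 1 library left out (4.6% to 13%). Those called lower (1, 6.82%) numbered 2 with the replicate block (10.9%), no variance trend (7.57%) and voom on library totals (7.78%), 3 with median centring (15.1%), quantile normalization (13.7%) or a threshold of 0.10 (10.4%), 4 with voom scaled to the listed regions' reads (15.8%), 7 with the replicate block and median centring (24.5%), and 0 to 6 with 1 library left out (0.246% to 31.5%, the 6 and the 31.5% without Zscan4+ replicate 2). Pseudocounts of 0.1 and 1, other minimums, whole inclusion in a window and widening by 50 kb left both counts at 1. Widened windows were counted in the fit used for the calls (8.01% higher, 6.82% lower of all regions). They hold flanking regions besides the 11, so their counts are out of more regions. Centring moved the median of all regions from -0.17 to -0.07 and the median standard error from 0.36 to 0.21; the cause of the other changes was not tested. Fits with 1 library left out take its partner's spread from the other group. The log2 ratio of the sums over a window's listed regions was -0.71 for Prdm14 scaled to reads in regions, against -0.85. That of Tbx3 was -0.17 to 0.55 with 1 library left out, against 0.23. Depth limits R17242 most, with 8 reads in Zscan4- replicate 1.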
